A study of Mus musculus with 11 samples.

Results

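The 10 genes described here encode carriers that move nutrients and metals across the cell membrane: Slc38a5, Slc26a1, Atp7b, Slc7a5, Slc3a2, Slc2a1, Slc16a1, Slc1a5, Slc43a1 and Slc7a11. They are 10 of the 19933 genes that the arrays named through a probe set with exactly 1 symbol, and each of them had 1 such probe set. They were selected on their measured levels over the erythroid stages and in dendritic cells, with earlier results of these arrays known, so those levels are given below as a description without a test. Genotype was not part of that choice, and the genotype comparisons carry tests.

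RNA of sorted mouse cells on the C57Bl/6 background was hybridised to 11 single-colour arrays, 1 per genotype and cell type, from mice at steady state. KO mice were Zbtb46gfp/gfp, Het mice Zbtb46 gfp/+ and WT mice Zbtb46+/+. Zbtb46 encodes a zinc finger transcription factor known from classical dendritic cells, and a gfp reporter stood in the altered allele. Of the lineage-negative bone marrow cells with CD117 and without CD41 or CD16/32, Pre MegE had CD150 and no CD105, Pre CFU-E had CD150 and low CD105, and CFU-E had CD105 and no CD150. These 3 stages were measured in KO, Het and WT mice, 9 arrays in all. CD4+ dendritic cells (DC) came from the spleens of KO and WT mice, 1 array each, and were sorted for CD4, CD11b, CD11c, CD172 and MHC class II and against B220 and CD8. The labels give no number of mice per sample and do not say if 1 mouse gave several stages, so the spread between arrays may hold little of the spread between mice.

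Values are log2 intensities unless stated otherwise, and a difference of 1 is a 2-fold change. The median of all probe sets was between 7.63 and 7.77 in the progenitor arrays, and was 7.64 in KO DC and 7.61 in WT DC. A value under that median is treated here as low, and a fold against such a value is best read as a lower bound. Summed intensities of erythroid and DC markers were highest in the cells so labelled. Of 11 erythroid markers 8 were measured, and 7 or 8 of these lay at or above the median in every progenitor array, with summed intensities of 28260 to 29178 at Pre MegE, 43048 to 44016 at Pre CFU-E and 49352 to 49708 at CFU-E. They summed to 2145 in KO DC and 2257 in WT DC, where 4 and 5 of the 8 lay at or above the median. Alas2 read 8.81 in WT DC, above its highest progenitor value, 8.22 in WT CFU-E. All 10 classical DC markers lay above the median in both DC arrays, and they summed to 81146 in KO DC and 79768 in WT DC, against 1972 to 3554 in progenitors. Between 3 and 6 of the 10 lay at or above the median in a progenitor array. Several of these, such as Cd4, encode proteins used in the sort. Markers of other lineages were present as well. All 6 measured macrophage markers lay at or above the median in both DC arrays. Of 7 granulocyte and monocyte markers, 6 or 7 did so in every progenitor array. Zbtb46, the targeted gene, read 8.02 in KO DC and 9.67 in WT DC. At CFU-E it read 7.50 in KO, 8.62 in Het and 8.87 in WT, and at Pre MegE it lay below the median in every genotype.

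Red cell precursors divide fast, build globin and heme, and take up amino acids, glucose and metals through membrane carriers of the SLC families and through P-type ATPases. Slc7a5 and Slc7a11 are light chains that reach the membrane only in a pair with the heavy chain Slc3a2. Slc38a5 and Slc1a5 carry glutamine and other neutral amino acids, and Slc43a1 carries large neutral amino acids without a heavy chain. Slc2a1 is the glucose carrier GLUT1, Slc16a1 the lactate and pyruvate carrier MCT1, Slc26a1 an exchanger of sulfate and other anions, and Atp7b the copper-exporting ATPase whose human counterpart is mutated in Wilson disease.

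The sequences before the transcription starts of 5 members are shown. They are the 3 that climbed most between stages (Slc38a5, Slc26a1 and Atp7b), the 1 that declined (Slc2a1), and the 1 that was low in progenitors and high in DC (Slc7a11). Each is the 250 bases upstream of a RefSeq transcript start in GRCm38.p6, written 5′ to 3′ along the gene's own strand. A window was given for 8 of the 10 members, with 2 starts for Slc26a1. Capitals mark matches on either strand to 6 motifs: AGATAA and TGATAA (bound by GATA factors), CCACCC (bound by erythroid Klf factors), TTGCATC (the core of an amino acid response element), TGACTCA (an AP-1-like core also found in antioxidant response elements) and CACGTG (an E-box).
Slc38a5, chrX:8271131-8271380, plus strand: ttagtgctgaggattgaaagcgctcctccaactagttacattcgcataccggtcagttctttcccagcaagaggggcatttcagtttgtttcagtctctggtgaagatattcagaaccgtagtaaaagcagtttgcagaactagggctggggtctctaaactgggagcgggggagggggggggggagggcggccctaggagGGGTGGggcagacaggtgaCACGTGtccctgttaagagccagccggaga
Slc26a1, upstream start, chr5:108675366-108675615, minus strand: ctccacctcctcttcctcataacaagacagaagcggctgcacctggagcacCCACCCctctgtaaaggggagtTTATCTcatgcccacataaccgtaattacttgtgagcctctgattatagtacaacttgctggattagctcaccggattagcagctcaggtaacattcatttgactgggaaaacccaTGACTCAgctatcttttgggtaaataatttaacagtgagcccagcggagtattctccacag
Slc26a1, downstream start, chr5:108674797-108675046, minus strand: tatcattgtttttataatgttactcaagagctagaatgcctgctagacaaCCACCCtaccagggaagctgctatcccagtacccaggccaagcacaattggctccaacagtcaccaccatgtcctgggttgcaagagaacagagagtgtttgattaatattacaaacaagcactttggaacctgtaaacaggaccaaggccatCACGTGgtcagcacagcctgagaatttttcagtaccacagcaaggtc
Atp7b, chr8:22060075-22060324, minus strand: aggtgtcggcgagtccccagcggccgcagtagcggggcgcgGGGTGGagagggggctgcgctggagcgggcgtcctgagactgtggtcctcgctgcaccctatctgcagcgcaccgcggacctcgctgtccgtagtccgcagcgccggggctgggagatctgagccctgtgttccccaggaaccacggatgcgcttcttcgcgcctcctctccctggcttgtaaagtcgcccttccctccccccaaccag
Slc2a1, chr4:119108495-119108744, plus strand: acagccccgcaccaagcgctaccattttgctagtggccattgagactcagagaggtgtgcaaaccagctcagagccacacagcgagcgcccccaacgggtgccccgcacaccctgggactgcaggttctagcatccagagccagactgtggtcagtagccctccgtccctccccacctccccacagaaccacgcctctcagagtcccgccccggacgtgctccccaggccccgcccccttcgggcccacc
Slc7a11, chr3:50443614-50443863, minus strand: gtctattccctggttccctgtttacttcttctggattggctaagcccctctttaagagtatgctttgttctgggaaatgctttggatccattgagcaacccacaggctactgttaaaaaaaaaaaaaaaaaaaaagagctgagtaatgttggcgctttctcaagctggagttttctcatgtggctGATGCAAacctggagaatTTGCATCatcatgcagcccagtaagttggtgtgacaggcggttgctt

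CCACCC stood in the windows of 5 of 8 members, Slc38a5, Slc26a1, Slc16a1, Atp7b and Slc43a1, and in 31.5% of 32851 mouse windows of 300 bases (250 before and 50 after a start). CACGTG stood in 4 of 8, Slc38a5, Slc26a1, Slc16a1 and Slc43a1, and in 7.15% of all windows. In Slc38a5 the CACGTG began 30 bases and the CCACCC match 49 bases before the start. AGATAA was found in Slc26a1 (11.2% of all windows) and TGATAA in Slc16a1 (9.05%). TTGCATC, present in 2.53% of windows, was found only in Slc7a11 among the members with a window, in opposite orientations 65 and 47 bases before the start. TGACTCA was found in Slc26a1 (5.2% of all windows). None of the 6 motifs was in the window of Slc2a1 or Slc3a2. These are matches of letters, and binding was not measured.

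Over the 3 stages the members did not move as a block. From Pre MegE to Pre CFU-E, 6 members had all 3 later arrays above all 3 earlier ones, 2 had them below, and 2 overlapped. Among the 10701 genes that passed a filter on low values, 40.1% were wholly above and 32% wholly below at this step, so a lack of overlap is common. From Pre CFU-E to CFU-E, 5 members were wholly above, 1 below and 4 overlapped (24.9% above and 30.1% below among all genes). From Pre MegE to CFU-E, 7 were wholly above, 1 below and 2 overlapped (43% and 36.5%). The median difference of the 10 members over that span was 0.77, against 0.05 for all genes. Nothing is read from these member counts, since stage levels chose the genes. In such bulk samples, fewer cells of a type and less RNA per cell cannot be told apart.

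**Figure D1:**
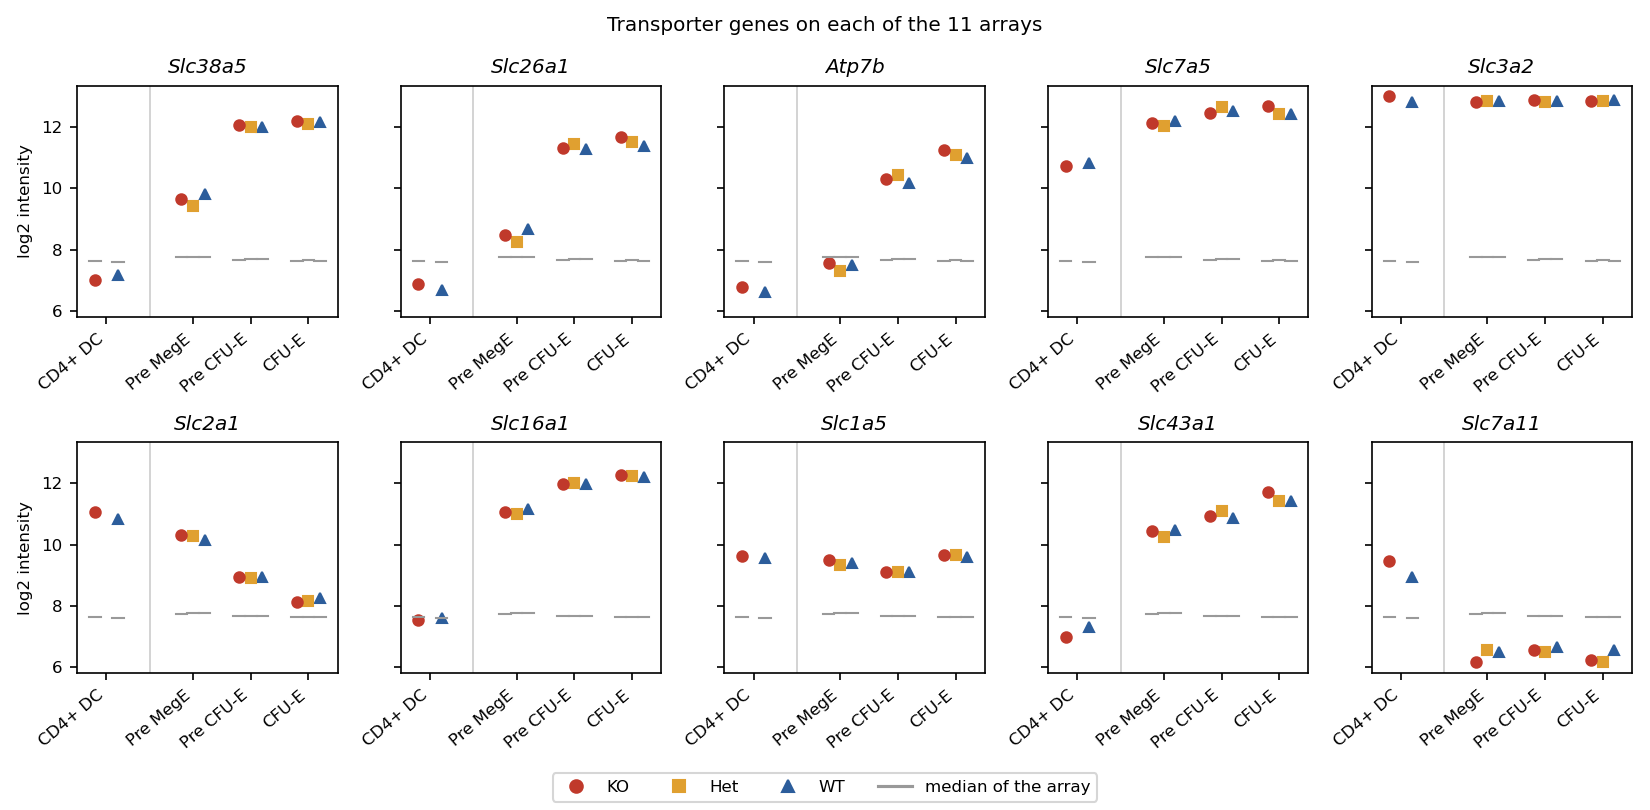
Log2 intensity (y axis) of each of the 10 transporter genes in each of the 11 arrays (x axis: CD4+ DC, then the 3 progenitor stages in order), with a point per array marked by genotype and a grey line at the median of that array. Slc38a5, Slc26a1 and Atp7b climb at Pre CFU-E, Slc2a1 declines at each stage, Slc3a2 is level, and Slc7a11 stands high only in the DC arrays.

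Slc38a5, the glutamine carrier SNAT5, read 9.65, 9.43 and 9.82 at Pre MegE in KO, Het and WT, 12.06, 11.99 and 11.99 at Pre CFU-E, and 12.21, 12.09 and 12.17 at CFU-E. The stages did not overlap, and nearly all of the difference lay at the first step: 2.38 ± 0.20 (SD over 3 genotypes), or 5.21-fold, against 0.15 ± 0.04 at the second step. In DC it read 7.02 in KO and 7.18 in WT, below the array medians. The order of levels was thus CFU-E, Pre CFU-E, Pre MegE and DC, with no overlap between neighbours.

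Slc26a1, the sulfate exchanger, followed a like course. At Pre MegE it read 8.47, 8.25 and 8.69 in KO, Het and WT, at Pre CFU-E 11.33, 11.44 and 11.28, and at CFU-E 11.68, 11.51 and 11.40. The first step was 2.88 ± 0.30 (7.36-fold), and the second, 0.18 ± 0.15, left the 2 later stages overlapping. Its DC values of 6.88 in KO and 6.68 in WT were below the array medians. Across the 9 progenitor arrays Slc26a1 and Slc38a5 had a Pearson r of 0.998, with the large first step shared by both.

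Atp7b, the copper ATPase, read 7.57, 7.29 and 7.50 at Pre MegE in KO, Het and WT, all below the array medians, then 10.32, 10.44 and 10.16 at Pre CFU-E, and 11.27, 11.09 and 10.98 at CFU-E. It climbed at both steps with no overlap, by 2.85 ± 0.26 (at least 7.23-fold) and by 0.81 ± 0.14 (1.75-fold). Over the span the difference was 3.66 ± 0.17, at least 12.7-fold and the largest of the 10. DC read 6.79 in KO and 6.63 in WT, again below the medians.

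Slc16a1, the lactate carrier MCT1, rested on a higher Pre MegE level of 11.08, 11.01 and 11.16 in KO, Het and WT. It read 11.97, 12.02 and 11.97 at Pre CFU-E and 12.28, 12.23 and 12.20 at CFU-E. Its steps were 0.90 ± 0.10 (1.86-fold) and 0.25 ± 0.05 (1.19-fold), neither with overlap. DC read 7.56 in KO and 7.59 in WT, just below the array medians.

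Slc43a1, the large neutral amino acid carrier LAT3, climbed by about the same amount at each step, 0.58 ± 0.23 and 0.56 ± 0.22. It read 10.44, 10.26 and 10.48 at Pre MegE in KO, Het and WT, 10.95, 11.10 and 10.87 at Pre CFU-E, and 11.73, 11.44 and 11.44 at CFU-E. The stages did not overlap. Among genotypes the second step was widest in KO (0.78) and narrowest in Het (0.34), with WT between them (0.57). DC read 7.00 in KO and 7.33 in WT, below the medians.

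Slc7a5, the LAT1 light chain, was high at every stage, at 12.12, 12.04 and 12.20 in KO, Het and WT Pre MegE, 12.47, 12.67 and 12.52 in Pre CFU-E, and 12.68, 12.43 and 12.44 in CFU-E. The first step was 0.43 ± 0.17 (1.35-fold) without overlap. The second had no common direction, being 0.22 in KO, -0.24 in Het and -0.09 in WT, and the 2 later stages overlapped. DC were lower at 10.75 in KO and 10.83 in WT, still well above the array medians.

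Slc3a2, the heavy chain that Slc7a5 and Slc7a11 need, was the most even of the 10. All 9 progenitor values lay between 12.82 and 12.89, with stage means of 12.84 ± 0.01, 12.86 ± 0.04 and 12.86 ± 0.03 (SD, n = 3) in the order of the stages. On the values as deposited, no neighbouring stages differed beyond their spread. With each array centred on its median, Pre CFU-E minus Pre MegE became 0.10 and CFU-E minus Pre MegE 0.14. The latter was -0.03 with quantile normalization, so small differences of Slc3a2 depend on the scaling. DC read 13.00 in KO and 12.81 in WT, on both sides of the progenitor range. The r of Slc7a5 and Slc3a2 across the 9 progenitor arrays was 0.023.

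Slc2a1, the glucose carrier GLUT1, was the 1 member that was lower at each later stage. It read 10.32, 10.27 and 10.16 at Pre MegE in KO, Het and WT, 8.95, 8.90 and 8.95 at Pre CFU-E, and 8.14, 8.15 and 8.25 at CFU-E. The steps were -1.32 ± 0.10 and -0.75 ± 0.06, and the CFU-E intensity was 0.239 of that at Pre MegE. Its values ran opposite to those of Slc16a1 over the 9 arrays (r = -0.986), which restates the stage steps of both. In DC it was higher than in any progenitor array, at 11.08 in KO and 10.84 in WT. DC thus stood highest, then Pre MegE, then Pre CFU-E, with CFU-E lowest and no overlap between neighbours.

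Slc1a5, the glutamine carrier ASCT2, dipped at the middle stage. It read 9.49, 9.35 and 9.40 at Pre MegE in KO, Het and WT, 9.12, 9.11 and 9.10 at Pre CFU-E, and 9.68, 9.65 and 9.58 at CFU-E. The dip was -0.30 ± 0.06 and the following climb 0.52 ± 0.04 (1.44-fold). DC, at 9.64 in KO and 9.55 in WT, overlapped CFU-E in level, with Pre MegE next and Pre CFU-E lowest.

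Slc7a11, the cystine and glutamate exchanger xCT, was below the median on all 9 progenitor arrays, between 6.16 and 6.64, and its stages overlapped. It therefore did not pass the low-value filter for the progenitor fits, which the other 9 members passed. In DC it read 9.48 in KO and 8.94 in WT, at least 6.86-fold above the progenitor mean.

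**Figure D2:**
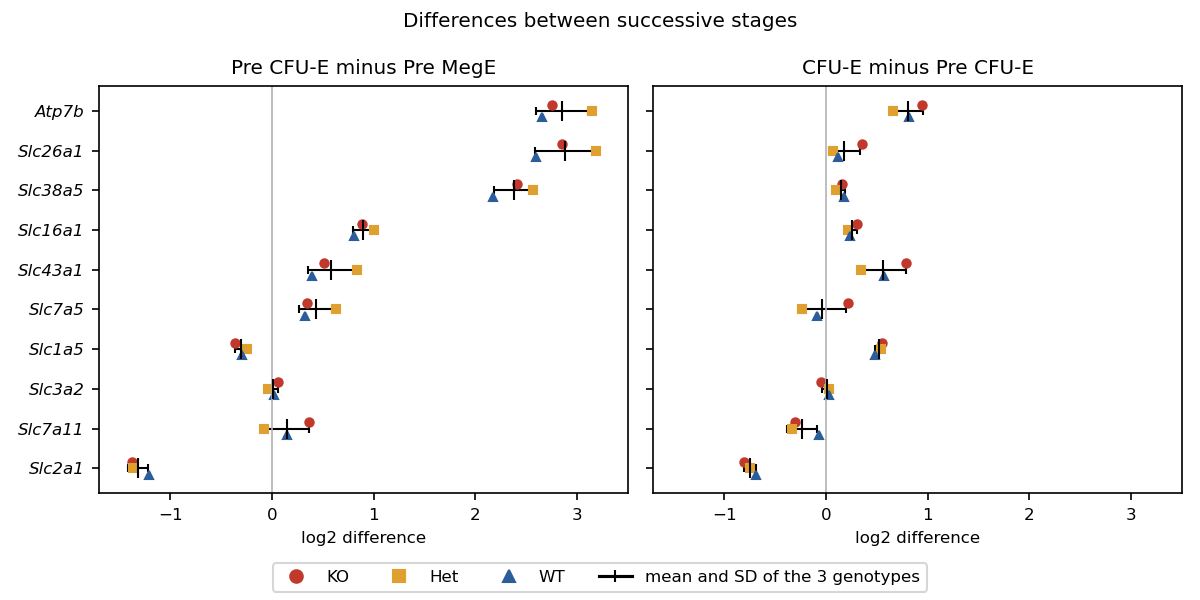
Difference of log2 intensity between stages (x axis) for each of the 10 genes (rows), with a point per genotype and the mean and SD of the 3 genotypes, for the first step (Pre CFU-E minus Pre MegE) and the second (CFU-E minus Pre CFU-E). Slc26a1, Atp7b and Slc38a5 lie beyond 2 at the first step, Atp7b leads the second at 0.81, and Slc2a1 is negative at both.

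Markers of other lineages moved over the same stages. Summed intensities at the 3 stages, in their order, were 6806 to 7228, 1625 to 1738 and 1387 to 1460 for 5 measured megakaryocyte markers. They were 11338 to 12763, 1973 to 2049 and 1033 to 1136 for 7 stem and multipotent progenitor markers, and 11073 to 11774, 3174 to 3493 and 1070 to 1270 for 6 mast cell and basophil markers. For 7 granulocyte and monocyte markers they were 21490 to 25046, 11111 to 13893 and 9861 to 12703. Within each genotype these sums were thus highest at Pre MegE and lowest at CFU-E, as Slc2a1 was, and their part in the members' stage differences was not tested.

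Set against progenitors, DC had lower values for 6 members, higher for 2 and overlapping for 2. Of 11560 genes, 57.8% had both DC arrays below all 9 progenitor arrays and 20.1% had both above, so low DC values were common on these arrays. The mean differences, DC minus progenitors, were -4.19 for Slc16a1, -4.16 for Slc38a5, -3.81 for Slc43a1, -3.67 for Slc26a1 and -2.91 for Atp7b, each against a DC level below the array median. Slc7a5 differed by -1.61, Slc2a1 by 1.84 and Slc7a11 by 2.78. Slc3a2 and Slc1a5 differed by 0.05 and 0.21, with overlap.

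The scale between DC and progenitors is less certain than that within either. The upper quartile of intensity was 605 in KO DC and 641 in WT DC, against 968 to 1009 in progenitors. Probe sets with identical intensities numbered 895 to 2308 for each pair of progenitor arrays, 28 for the 2 DC arrays, and 0 to 2 for a DC array with a progenitor array. No source used here says whether the cell types were summarised together, and a difference in summarisation and one in RNA cannot be told apart from these totals. With all 11 arrays brought to 1 distribution by quantile normalization, the DC difference of Slc7a5 was -0.96, of Slc3a2 0.56 and of Slc1a5 0.89. All 10 members kept their sign, from -4.09 for Slc38a5 to 3.28 for Slc7a11.

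The genotype comparisons asked whether these carriers differed in progenitors without intact Zbtb46, and no tested member did so at the threshold. KO was compared with WT within stages in 1 limma fit over the 9 arrays, with an adjusted p under 0.05 (Benjamini-Hochberg over 10701 genes) as the call. Of all genes, 0.0187% were called higher in KO and 0.121% lower. Of the 9 members tested, 0 were called and 0 had an unadjusted p under 0.05, which 614 of the 10701 genes had. Their KO minus WT differences, averaged over the stages, ran from -0.02 to 0.17.

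Atp7b had the largest of these, 0.17 (SE 0.0868, limma adjusted p = 0.911), and was higher in KO at 3 of 3 stages. Slc1a5 was also higher in KO at 3 of 3 stages, by 0.07 (SE 0.048, limma adjusted p = 0.981). At CFU-E alone, where Zbtb46 was highest in WT, KO minus WT was 0.29 for Atp7b, 0.29 for Slc43a1, 0.28 for Slc26a1 and 0.25 for Slc7a5. A single array per genotype stands behind each of these, so no test was possible at 1 stage. Slc7a11, at its low level, was not fitted. Its KO minus WT differences over the stages were -0.31, -0.09 and -0.33, from Pre MegE on.

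Het minus WT differences of the 9 members ran from -0.16 to 0.06, and KO minus Het differences from 0.02 to 0.13. None was called in either comparison, and 0 had an unadjusted p under 0.05. The nearest was Slc38a5, with a Het minus WT difference of -0.16 (limma adjusted p = 0.944). Among all genes, 0.00934% were called higher and 0.028% lower for Het against WT, and 0% either way for KO against Het. Of the 10701 genes, 566 had an unadjusted p under 0.05 for Het against WT, and 255 for KO against Het. A p that misses the threshold does not show that the levels were alike.

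**Figure D3:**
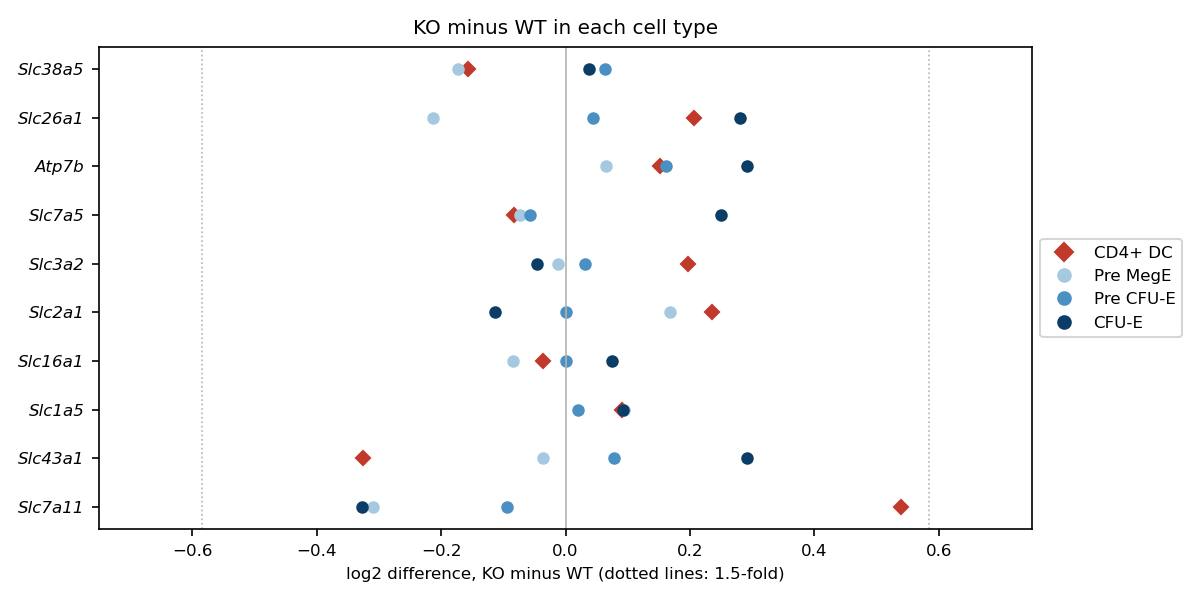
KO minus WT difference in log2 intensity (x axis) of each of the 10 genes (rows), with a point for CD4+ DC and for each progenitor stage, and dotted lines at a 1.5-fold difference. Most points lie within 0.3 of 0, and the DC point of Slc7a11, at 0.54, lies on the other side of 0 from its 3 progenitor points.

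In DC the KO and WT arrays stood alone, so their differences have no replicate check. None of the 10 members reached a 1.5-fold difference, which 0.758% of 10554 genes did upwards in KO and 1.77% downwards. Slc7a11 came closest, at 1.45-fold higher in KO, and Slc43a1 was 1.25-fold lower in KO, both of its values being below the array medians. The other 8 differed by between -0.16 for Slc38a5 and 0.24 for Slc2a1.

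A fit over all 11 arrays tested whether the KO effect in DC differed from that in progenitors, with the lone DC arrays assumed to vary like the progenitor arrays. Of 11560 genes, 1.56% had a called difference towards a higher KO effect in DC and 3.01% towards a lower one. Of the 9 members that had also passed the filter in progenitors, none reached the threshold, and Slc43a1 (-0.44) was the nearest. Slc7a11 passed it only through the 2 DC arrays, where it is high, so no p is given for it, and its KO minus WT values stand above as a description. With array weights Slc2a1, Slc3a2 and Slc43a1 were called (0.23, 0.20 and -0.46).

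The carriers were then set beside other genes of the same pathways, 169 genes in 9 lists, of which 120 passed the low-value filter and none was a member. These were tested between stages in the same fit of 9 arrays, 3 per stage. From Pre MegE to CFU-E 64 rose and 41 fell, where 41.5% of all genes rose and 35.1% fell. At the first step 62 rose and 37 fell (37.1% and 29.3% of all genes), and at the second 34 rose and 36 fell (18.7% and 25.3%). The lists were chosen with earlier results of these arrays in view, so their counts describe the pathways and are not independent evidence. Centring each array on its median moved the all-gene median over the span to 0.17, against 0.05 unscaled, and turned the split of the listed genes into 74 higher and 34 lower. Values below are CFU-E minus Pre MegE in log2 units, in the same direction in 3 of 3 genotypes.

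Copper genes were mostly higher at CFU-E, as Atp7b was. Of 14 tested, 12 rose and 2 fell, with a median of 0.83. Mt2 rose by 2.16 (SE 0.0652, limma adjusted p = 3.53e-09) and Mt1 by 1.30 (limma adjusted p = 9.64e-08), both metallothioneins that bind copper and zinc, and both were already high at Pre CFU-E. Cox17, the copper chaperone of cytochrome oxidase, rose by 1.39. The 2 that fell were Slc31a2 (-0.63), a low-affinity copper carrier, and Atp7a (-0.55, SE 0.0737, limma adjusted p = 9.33e-05), the other copper-exporting ATPase of mammals. Atp7a read 8.33, 8.08 and 8.15 at CFU-E in KO, Het and WT, and 10.37 in KO DC and 10.22 in WT DC. Atp7a was thus lower, and Atp7b higher, at CFU-E than at Pre MegE. Progenitors set against DC showed the same, on the uncertain scale described above. At the second step Atp7b climbed by 0.81, while Atp7a differed by -0.02 (limma adjusted p = 0.882), with no common direction among genotypes.

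Hexose carriers were mostly lower at CFU-E, as Slc2a1 was. Of 7 tested, 5 fell and 1 rose, with a median of -1.08. Slc45a3, a sugar carrier also called prostein, fell by 2.79 (SE 0.0508, limma adjusted p = 2.66e-10), Slc2a9, a urate and hexose carrier, by 1.34, and Slc50a1, known as a SWEET sugar carrier, by 1.16. Slc2a8, the intracellular glucose carrier GLUT8, rose by 1.11 (limma adjusted p = 5.7e-08).

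Among 7 tested monocarboxylate carriers and partners, 3 rose and 4 fell, with a median of -0.29. Bsg, the chaperone that brings Slc16a1 to the membrane, rose by 0.39 (SE 0.0502, limma adjusted p = 6.96e-05), and Mpc1, of the mitochondrial pyruvate carrier, by 1.06. Emb, the other chaperone of this family, fell by 1.22, all of it at the first step (-1.36), to values below the array medians. Slc16a6 rose by 0.64, while Slc16a7, the carrier MCT2, fell by 1.52 and Slc16a13 by 0.90.

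Amino acid carriers other than the members went both ways, 6 rising and 8 falling of 17 tested, with a median of -0.07. Slc16a10, the aromatic amino acid carrier TAT1, rose by 1.63 (SE 0.0492, limma adjusted p = 3.56e-09), with called rises at both steps. Slc1a4 (ASCT1), the closest relative of Slc1a5, rose by 1.24. Slc6a9, a glycine carrier that supplies heme synthesis, rose by 0.85, with -0.04 at the first step and 0.89 at the second. Other light chains that pair with Slc3a2 went both ways. Slc7a8 (LAT2) fell by 3.22 (SE 0.0911, limma adjusted p = 2.4e-09) and Slc7a6 fell by 2.17 (SE 0.0487, limma adjusted p = 6.32e-10). Slc7a8 read 6.85, 7.22 and 6.89 at CFU-E in KO, Het and WT, against 10.19, 10.16 and 10.25 at Pre MegE, and the CFU-E values lay below the array medians. Slc7a7 (y+LAT1), which lies outside the naming rule, rose by 0.83 (SE 0.0461, limma adjusted p = 1.9e-07), with called rises at both steps. Slc36a4 fell by 1.04.

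The amino acid response list holds Atf4, the kinases Eif2ak1 and Eif2ak4 that act before it, and genes that Atf4 is known to drive when amino acids are short. Of 21 tested, 12 rose and 5 fell, with a median of 0.18. Mthfd2, of mitochondrial folate metabolism, rose by 1.85 (SE 0.0809, limma adjusted p = 3.78e-08), Asns, asparagine synthetase, by 1.22 and Sesn2, a stress-induced inhibitor of mTORC1 signalling, by 0.93. Atf3, a stress-induced transcription factor, fell by 2.76 (SE 0.0893, limma adjusted p = 5.62e-09), Ddit4 by 1.04 and Stc2 by 0.51, so members of this list that are known as stress genes stood on both sides.

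The glutathione list had 9 genes rising and 1 falling of 12 tested, with a median of 0.32. It mixes synthesis enzymes with genes of other roles, such as Chac2, Nqo1 and Hmox1, so its counts are not of synthesis alone. Cystine entering through Slc7a11 can feed glutathione synthesis, and Slc7a11 itself stayed below the array medians in progenitors. Gclc, the catalytic subunit of the first enzyme of the pathway, rose by 0.77 (SE 0.074, limma adjusted p = 8.38e-06), Chac2, which breaks glutathione down, by 1.41, and Nqo1, a quinone reductase driven by Nfe2l2, by 0.89. Hmox1, heme oxygenase, fell by 0.31 (limma adjusted p = 0.00809), a call lost with each array centred on its median (limma adjusted p = 0.0618) and with quantile normalization (limma adjusted p = 0.057).

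**Figure D4:**
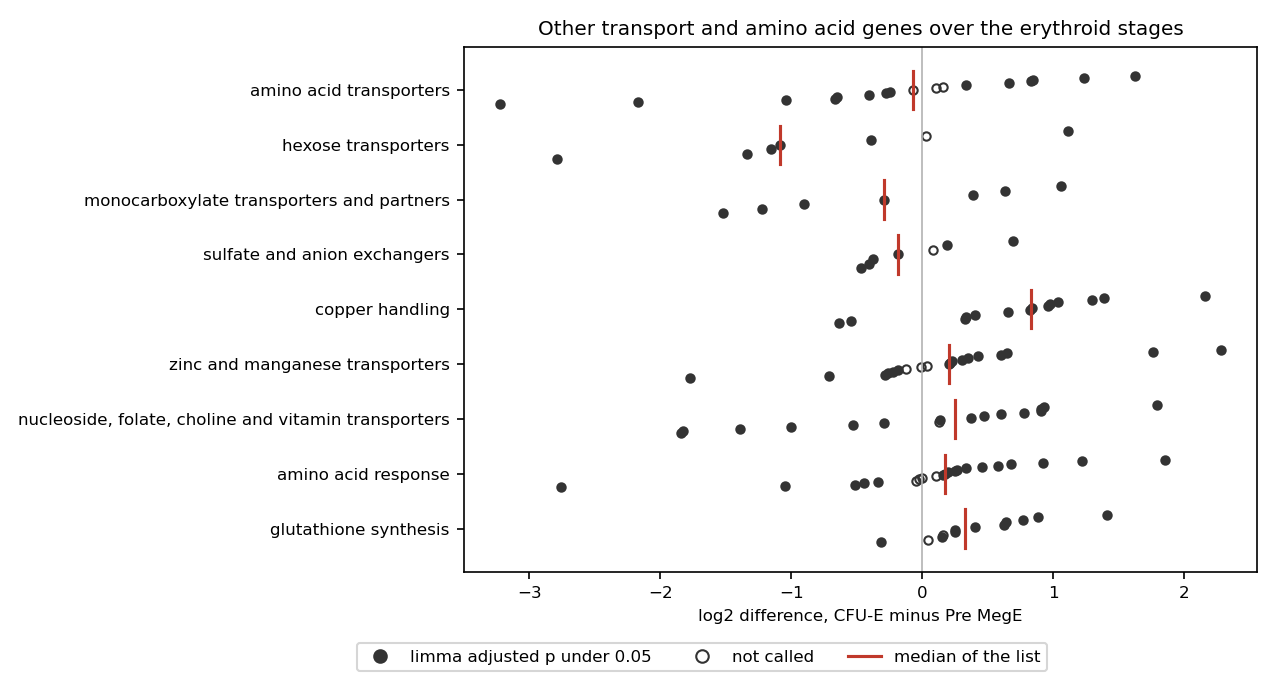
CFU-E minus Pre MegE difference in log2 intensity (x axis) of the 120 tested genes of the 9 pathway lists (rows), with filled points for genes called at a limma adjusted p under 0.05 and a bar for the list's median. The copper list lies mostly to the right of 0 with a median of 0.83, and the hexose list mostly to the left with a median of -1.08.

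Among sulfate and anion genes, 2 rose and 4 fell of 7 tested, with a median of -0.18, and none moved as far as Slc26a1. Slc4a1, the band 3 anion exchanger of red cells, rose by 0.69 (SE 0.0774, limma adjusted p = 2.54e-05), after a fall of 0.29 at the first step, a call that was lost with array weights (-0.19, limma adjusted p = 0.0876). Slc35b2, which carries the sulfate donor PAPS into the Golgi, rose by 0.19, a call lost without the Het CFU-E array (limma adjusted p = 0.0597). Slc4a2 fell by 0.46, Papss1, a PAPS synthase, by 0.40 and Slc35b3 by 0.37.

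Zinc and manganese carriers, with Mtf1 counted among them, had 10 rising and 6 falling of 19 tested, with a median of 0.21. Slc30a10, a manganese exporter, rose by 2.28 (SE 0.0586, limma adjusted p = 1.33e-09), of which 1.72 came at the second step. Slc39a8, a zinc and manganese importer, rose by 1.77 and Mtf1, the metal-responsive transcription factor that drives metallothioneins, by 0.65. Slc30a4 fell by 1.77 and Slc30a7 by 0.71. Slc39a1 fell by 0.28 (limma adjusted p = 0.0225), a call that was lost without any 1 of 3 arrays: WT Pre MegE, WT CFU-E or KO CFU-E (limma adjusted p = 0.0907, 0.109 and 0.0586). It was also lost with each array centred on its median (limma adjusted p = 0.142), with the second probe set (0.0561) and with array weights (0.076).

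Carriers of nucleosides, folate, choline and vitamins had 9 rising and 6 falling of 16 tested, with a median of 0.25. The list also holds Slc20a1, Slc20a2, Slc5a3 and Mfsd2b, which carry other substrates. Slc29a1, the nucleoside carrier ENT1, rose by 1.80 (SE 0.0513, limma adjusted p = 2.51e-09), Slc19a2, a thiamine carrier, by 0.93 and Slc44a1, a choline carrier, by 0.91. Slc28a2, a concentrative nucleoside carrier, fell by 1.84, Slc44a2 by 1.83 and Slc23a2, a vitamin C carrier, by 1.39.

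Genotype moved none of the 120 listed genes at the threshold in progenitors. By limma 0 were called for KO against WT, Het against WT or KO against Het, and 7, 8 and 6 had an unadjusted p under 0.05. Of all 10701 genes, 614, 566 and 255 had such a p. Between DC and progenitors 43 of 128 listed genes were called higher and 70 lower (25.3% and 64.6% of all genes). With quantile normalization that split turned to 62 higher and 51 lower. It thus depends on the uncertain scale between the cell types, and no gene is named from it here. Atp7a is set against DC above, and genes whose call changed sign with the scaling are given at the end. The 128 also include genes beyond the 120 above, which passed the filter only with the DC arrays counted. A higher DC value was part of how those genes entered, and likewise for some of the 11560 genes behind the shares.

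In the fit that compared the KO effect in DC with that in progenitors, 11 of the 128 listed genes passed the threshold, 8 towards a higher KO effect in DC and 3 towards a lower one (1.56% and 3.01% of all genes). With 1 DC array per genotype this borrows the spread of the progenitor arrays, so the DC differences themselves have no replicate check. Among the 8 were the metallothioneins Mt1, at 11.14 in KO DC and 10.32 in WT DC, and Mt2, at 11.11 in KO DC and 10.45 in WT DC, both of the copper list, and they are named after their values were seen. Averaged over progenitor stages, KO minus WT was -0.10 for Mt1 and -0.11 for Mt2. Marker sums also differed between the 2 DC arrays. The 7 granulocyte and monocyte markers, of which 2 lay at or above the median in DC, summed to 11415 in KO DC and 7919 in WT DC, and the 6 macrophage markers, all above it, to 14468 in KO DC and 16379 in WT DC. Csf3r read 11.24 in KO DC and 9.55 in WT DC, the widest gap of the first list, and Lyz2 13.0 in KO DC and 12.7 in WT DC. The others of that list, Mpo, Elane, Ctsg, Prtn3 and Cebpe, lay below the median in both DC arrays. The part of such markers in the result was not tested.

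The genes most like each member were found by Pearson r of log2 values over the 11 arrays, which share stage, cell type and scale, so that a high r is common. For Slc38a5 they were Nfia (r = 0.999) and Rad9a (0.998), for Slc26a1 Tmem70 and Pklr (both 0.996), and for Atp7b Sphk1 (0.997) and Cdr2 (0.996). Slc16a1 was nearest to Tmem183a and Ppat (both 0.999), Slc43a1 to Tonsl (0.999) and Tubgcp3 (0.998), Slc7a5 to Cluh (0.999) and Pelp1 (0.998), and Slc2a1 to Cflar and Tm6sf1 (both 0.996). Over the 9 progenitor arrays alone these 14 pairs kept an r of at least 0.982. Slc1a5 was nearest to Slc39a6 (0.925) and St3gal2 (0.924). Slc3a2, the most even gene, had lower values with Atp2a1 (0.885) and Cabp2 (0.875), which were 0.268 and 0.540 over the progenitors. The values of Slc7a11 with Nfil3 (0.992) and Rasip1 (0.991) were 0.462 and 0.520 over the progenitors, so the DC arrays set most of that likeness.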

How the data were processed

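RNA of 11 sorted samples was measured on single-colour Affymetrix arrays after labelling with the Ambion/Affymetrix WT Expression Kit, per the labels' protocols. The authors deposited an intensity for every probe set on every array. Per the submitters' processing notes they used RMA, and neither its version nor the genome build appears in the sources used here. A linear scale was inferred from the values, and log2 was taken of each deposited intensity with no further scaling. Of 29674 probe sets, 21780 had 1 symbol, 1618 several and 6276 none listed. For 996 genes with several probe sets, the one with the highest mean was used.

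Genes at or above the array median on at least 2 arrays were fitted with limma 3.58.1 (R 4.3.3, two-sided, Benjamini-Hochberg adjustment, called at an adjusted p under 0.05). Stage and genotype entered 1 additive fit of 9 progenitor arrays (10701 genes, 4 residual degrees of freedom). A fit of 11 arrays (11560 genes) gave DC comparisons. The procedure was tested on simulated data. The p-values measure only the spread between these arrays, and their number limits the precision.

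Members and lists were chosen with earlier results of these data known. Besides the members, the rule named up to 3 rises and 3 falls per list from Pre MegE to CFU-E (called, same sign in 3 genotypes) and the 2 genes most like each member. Alternatives were the scaling, the filter, the probe set, array weights, the blocks and leaving out each array. Promoter sequences and loci are from RefSeq, GRCm38.p6.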

Additional observations from a re-analysis of the deposited data

Results flagged for a closer look

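Slc7a11 was singled out because KO and WT differed in opposite directions in DC and in progenitors. In DC KO was higher than WT by 0.5392 in log2 intensity, with 1 array per genotype. In progenitors KO minus WT was -0.31, -0.09 and -0.33 over the stages from Pre MegE on, where Slc7a11 was below the median on all 9 arrays. No p is given for the difference, since the gene was singled out for these signs and passed the low-value filter only through the DC arrays.

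Among the listed pathway genes, 11 had a KO effect in DC that differed from the one in progenitors in the limma fit of 11 arrays (adjusted p from 0.00404 to 0.0466). The differences, DC minus progenitors, were 0.98 for Slc5a3, 0.93 for Mt1, 0.84 for Slc30a1, 0.81 for Nfe2l2, 0.79 for Cebpb, 0.77 for Mt2, 0.55 for Slc20a1 and 0.43 for Slc2a6. They were -1.02 for Slc4a1, -0.49 for Shmt2 and -0.42 for Slc16a10. All 11 lean on 1 DC array per genotype and take their error from the progenitor arrays, so the DC differences have no replicate check. Slc4a1, a red cell gene, read 8.47 in KO DC and 9.41 in WT DC. Erythroid markers differed between these 2 arrays in both directions, with the widest gaps towards lower values in KO DC. Lower in KO DC than in WT DC were Alas2 (7.91 and 8.81), Rhag (5.225 and 6.068), Car1 (7.42 and 8.02) and Klf1 (6.835 and 7.156). Higher in KO DC were Gata1 (7.34 and 7.00), Tfrc (9.95 and 9.65), Ermap (7.768 and 7.655) and Epor (7.72 and 7.70). Rhag, Klf1 and Gata1 lay below the median in both. The part of such markers in the Slc4a1 value was not tested.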

How the results depend on the processing

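The labels carry no replicate numbers. No paired analysis was possible because each genotype and cell type has 1 array; stage and genotype served as blocks in the fit. Of 4019 repeats of single-gene results, 3783 kept their direction and their side of the threshold, 95 changed sign without being called or with overlapping stages, 92 lost a call, 35 gained one and 8 untested values moved beyond their spread. The 8 moved values were stage differences of Slc3a2, Slc1a5, Slc16a1 and Slc2a1, with arrays centred on their medians or with quantile normalization. Calls that changed sign were all of DC minus progenitors with quantile normalization: Slc7a6 0.061, Slc50a1 0.50, Slc16a6 0.36, Slc4a2 0.17, Mtf1 0.11 and Slc39a1 0.43. Of these, Slc7a6 and Mtf1 were no longer called (limma adjusted p = 0.279 and 0.242), and the others were called in the other direction. The members called for genotype stayed at 0 under every alternative run in the 3 progenitor comparisons, with a lowest limma adjusted p of 0.5615 for KO against WT, 0.3979 for Het against WT and 0.8421 for KO against Het. The members called for a KO effect in DC unlike that in progenitors numbered 1 with quantile normalization, 4 with array weights (whose estimate did not reach its convergence tolerance), and 0 to 1 with 1 array left out, the 1 arising without Het Pre MegE. Slc7a11, which passed the filter only through the DC arrays, is among these each time, so the 3 other members with array weights are what remains. Over all genes, 15 calls for KO against WT became 7 with no filter, 1 without the blocks and 1 to 26 with 1 array left out. For Het against WT 4 became 1 with no filter, 44 with array weights, 1 without the blocks and 1 to 5 with 1 array left out. For KO against Het 0 became 0 to 1, the 1 call appearing without Het Pre CFU-E. Members wholly lower at CFU-E than at Pre CFU-E were 1, and 1 to 2 with 1 array left out, with 2 without the WT CFU-E or the KO CFU-E array. Members wholly above were 6 to 8 at the first step, 5 to 6 at the second and 7 to 8 over the span. The highest of these counts were all reached with each array centred on its median. Probe sets below the array median limit what can be seen of Slc7a11 in progenitors, of Atp7b at Pre MegE, and of Slc38a5, Slc26a1, Atp7b, Slc16a1 and Slc43a1 in DC. The same limit holds for some named pathway genes. Emb, Slc16a7, Slc2a9, Slc28a2, Slc30a4, Slc7a8 and Hmox1 were below the median on every CFU-E array. Slc30a10 and Slc1a4 were below it on every Pre MegE array.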
